A study of Homo sapiens with 15 samples.

Results

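The AP-1 transcription factors are described here from the RNA of MDA-MB-231 cells, a mesenchymal-like, triple-negative human breast cancer cell line. The members are the 10 genes FOS, FOSB, FOSL1, FOSL2, JUN, JUNB, JUND, ATF3, MAFF and BATF3, taken by symbol from a count table of 18858 genes, in which all 10 were found. Control cells were not transfected, and siControl cells were given non-targeting siRNAs. The siRNA pools of siYAP and siTAZ cells were directed at YAP1 and at WWTR1 (which encodes TAZ), respectively, and siYAP+TAZ cells were given the 2 together. With 30 nM of each pool, siYAP+TAZ cells had 60 nM of siRNA, and the effect of this higher dose cannot be told apart from that of losing both proteins. Knockdown ran for 48 h, then the cells were moved to gelatin-coated plates for 5 to 6 h and scraped off, and polyadenylated RNA was sequenced. Every group had 3 libraries. They are numbered from 16 to 30, and each run of consecutive numbers (16 to 20, 21 to 25 and 26 to 30) holds a library of every group in the order Control, siControl, siYAP, siTAZ and siYAP+TAZ. All 5 groups were prepared in 3 independent experiments, and no source used here assigns single libraries to them.

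AP-1 is not a single protein but a family of dimers built from basic leucine zipper (bZIP) proteins. JUN, JUNB and JUND can pair with each other or with the FOS proteins, whereas FOS, FOSB, FOSL1 and FOSL2 bind DNA only with a partner such as a JUN protein. The dimers bind the TPA response element (TRE, TGANTCA) or the cAMP response element (CRE, TGACGTCA). FOS, FOSB, JUNB and ATF3 are immediate-early genes, which are transcribed within minutes of a stimulus such as serum or growth factors and whose RNA is short-lived, whereas FOSL1 is a lasting component of AP-1 in mesenchymal breast cancer cells. YAP and TAZ do not bind DNA themselves. They are recruited by TEAD factors, and in breast cancer cells TEAD and AP-1 are known to share many enhancers, which is why the RNA of the AP-1 genes after loss of YAP or TAZ is of interest.

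Promoters were examined first, over the 250 bases before each RefSeq start (GRCh38.p14), for letters that AP-1, CREB/ATF, TEAD or SRF proteins are known to bind. Windows of 8 of the 10 members were matched, and FOSL1 and BATF3 were not. MAFF and ATF3 each had 2 starts and so 2 windows. FOS, FOSB and FOSL2 share the core TGACGT of the CRE at nearly the same distance, with its bases 64 to 59 before the start in FOS, 60 to 55 in FOSB and 66 to 61 in FOSL2. MAFF holds the whole CRE 54 to 47 bases before the first of its starts, and the window of the other start holds neither the CRE nor TGACGT. The stretches from 150 to 35 bases before the start are shown 5′ to 3′ because FOS and FOSB varied together across the libraries, because MAFF was lower in every knockdown library, and because FOSL2 has the same letters at nearly the same distance but another pattern. Capitals mark TGACGT, and in MAFF the CRE. All 4 lie on the plus strand, at chr14:75278678-75278793, chr19:45467846-45467961, chr2:28392708-28392823 and chr22:38201844-38201959, and the 3′ ends of the FOSL2 and MAFF stretches overlap the first exon of other transcripts of the same gene in GENCODE.
FOS: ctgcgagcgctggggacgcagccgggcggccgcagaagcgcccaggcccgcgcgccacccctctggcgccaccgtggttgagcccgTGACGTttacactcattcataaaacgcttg
FOSB: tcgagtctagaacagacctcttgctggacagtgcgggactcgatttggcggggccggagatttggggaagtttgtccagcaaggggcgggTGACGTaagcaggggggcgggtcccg
FOSL2: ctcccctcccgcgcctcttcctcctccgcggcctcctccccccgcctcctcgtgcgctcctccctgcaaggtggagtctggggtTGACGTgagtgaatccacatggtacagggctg
MAFF: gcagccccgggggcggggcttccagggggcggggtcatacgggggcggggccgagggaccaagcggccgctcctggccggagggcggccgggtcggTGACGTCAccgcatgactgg

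On both strands, the CRE occurred in 1.65% of 35114 promoter windows of the same length and TGACGT, which also counts every CRE, in 7.1%. JUND had a CRE as well, 200 to 193 bases before its start, and a further TGACGT on the opposite strand at 87 to 82. No window of the 8 matched members held a TRE (6.57% of all windows), the TEAD motif GGAATG (11.9%) or the CArG box of SRF (1.16%). The search took exact letters only, so near matches such as TGACATCA, present in the JUN window and an ATF3 window, were not counted. Sequence farther upstream was not searched. These matches describe letters in a window and not sites in use.

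The total count per library lay between 18696737 and 30107312. Pairs of libraries of a group differed by at least 6.69 times the variance of read sampling, so that none was merely a second sequencing of another. This does not show that they came from separate RNA samples. Of the markers of the line, VIM, CD44, AXL and ZEB1 were abundant in every library (at least 1663 normalized counts) and PGR (0 to 8.32) and PTPRC of leukocytes (0 to 5.10) were near 0, whereas the luminal marker GATA3 was at 424 to 680. Normalized counts are read counts rescaled to a library of mean effective (TMM) size. YAP1 was at 4202 to 4431 normalized counts in siControl, at 1013, 2764 and 761 in siYAP libraries 18, 23 and 28 and at 1796 to 2240 in siYAP+TAZ, so the knockdown was incomplete, least complete in siYAP 23. WWTR1 was at 1579 to 1995 in siControl, at 828, 254 and 521 in siTAZ libraries 19, 24 and 29 and at 1123 to 1284 in siYAP+TAZ. FOS, FOSB and ATF3 were lowest in libraries 26 to 30 of every group, so values within each run are given beside the pooled ones. In bulk RNA, fewer cells that express a gene and less RNA per cell cannot be told apart.

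FOSL1 made up most of the AP-1 RNA in these cells. Levels of different genes were compared as TMM-scaled CPM per kilobase of merged exons (CPM per kb). On this scale FOSL1 had a median of 600 CPM per kb over the 15 libraries (511 to 775), which was between 55.1% and 69.0% of the sum of the 10 members. JUN (median 154) and JUND (105) followed, then JUNB (36.3), FOSL2 (31.5) and MAFF (12.7). FOSB (9.0), FOS (6.59), BATF3 (6.30) and ATF3 (5.64) were lowest, and the ranges of these 4 overlapped. The ranges of JUNB (27.8 to 48.6) and FOSL2 (23.9 to 43.2) overlapped too, as did those of JUN (139 to 192) and JUND (78.7 to 150) and those of MAFF (8.73 to 18.1) and FOSB (2.33 to 14.7). The other neighbours in this order were separate in every library. With the longest transcript as the length, the order of the 6 most abundant members was the same and ATF3 moved from rank 10 to rank 8.

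**Figure D1:**
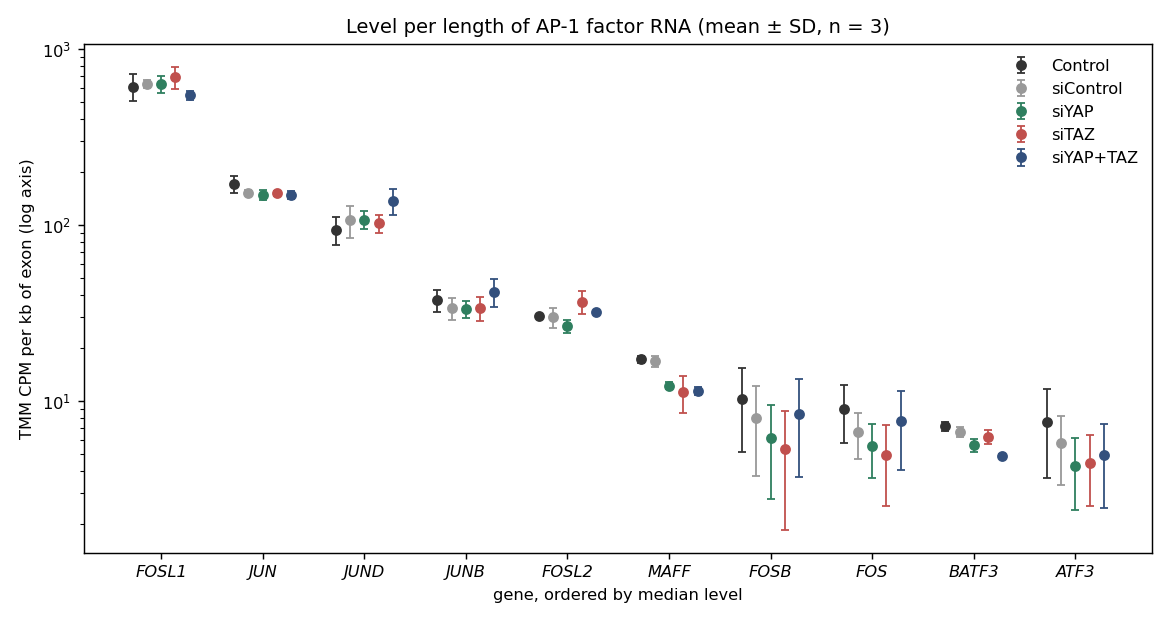
Level per length of the 10 AP-1 factor genes, as TMM-scaled CPM per kb of merged exons on a log axis, by gene and group; points are means and bars the SD of 3 libraries. FOSL1 lies highest in every group, and FOSB, FOS, BATF3 and ATF3 lie at about 10 CPM per kb or less.

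The sum over the members overlapped between all 5 groups, at 993.1 ± 94.2 CPM per kb in Control, 995.7 ± 24.4 in siControl, 977.4 ± 55.0 in siYAP, 1045 ± 84.8 in siTAZ and 938.7 ± 31.2 in siYAP+TAZ (SD, n = 3 each). In siYAP+TAZ the share of FOSL1 was 58.0% ± 4.36 and that of JUND 14.4% ± 2.21, against 63.4% ± 3.55 and 10.7% ± 2.04 in siControl, and these spreads overlap.

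Knockdown of YAP and TAZ together lowered MAFF and BATF3, which encode short bZIP proteins, and left the abundant FOSL1 and JUN without a called change. In siYAP+TAZ against siControl, 2 of the 10 members were lower and none higher when called at adjusted p values up to 0.05 (edgeR's quasi-likelihood test on counts, all 15 libraries in one fit, Benjamini-Hochberg adjustment over all genes). Across the transcriptome 18.4% of genes were called in this comparison, 9.97% higher and 8.39% lower, so the share of called members is close to the background. No called member had an absolute log2 fold change of 1 or more, whereas 3.46% of all genes were both called and past that size. In siTAZ against siControl 1 member, MAFF, was lower (2.03% of all genes called, with 0.695% of all genes lower), and in siYAP against siControl no member was called (background 0.933%). Among the members, 2 had an unadjusted p under 0.05 in each of the 3 comparisons, beside 30.3% of all genes for siYAP+TAZ, 11.9% for siYAP and 16.0% for siTAZ. The median log2 fold change of the members was 0.02 for the co-knockdown, -0.21 for siYAP and -0.08 for siTAZ, beside medians between -0.0048 and 0.0025 over all genes. Without libraries 26 to 30, 3 members were called in siYAP+TAZ, with JUNB and JUND higher and BATF3 lower, and none in either single knockdown, while the share of all genes called was 20.1% for the co-knockdown, 1.19% for siYAP and 4.71% for siTAZ. With the run of library numbers as a block, 3 members were called in siYAP+TAZ (JUNB besides MAFF and BATF3), 2 in siYAP (MAFF and ATF3) and 4 in siTAZ (MAFF, FOS, FOSB and FOSL2), while the share of all genes called rose to 28.6%, 6.1% and 10.3%.

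**Figure D2:**
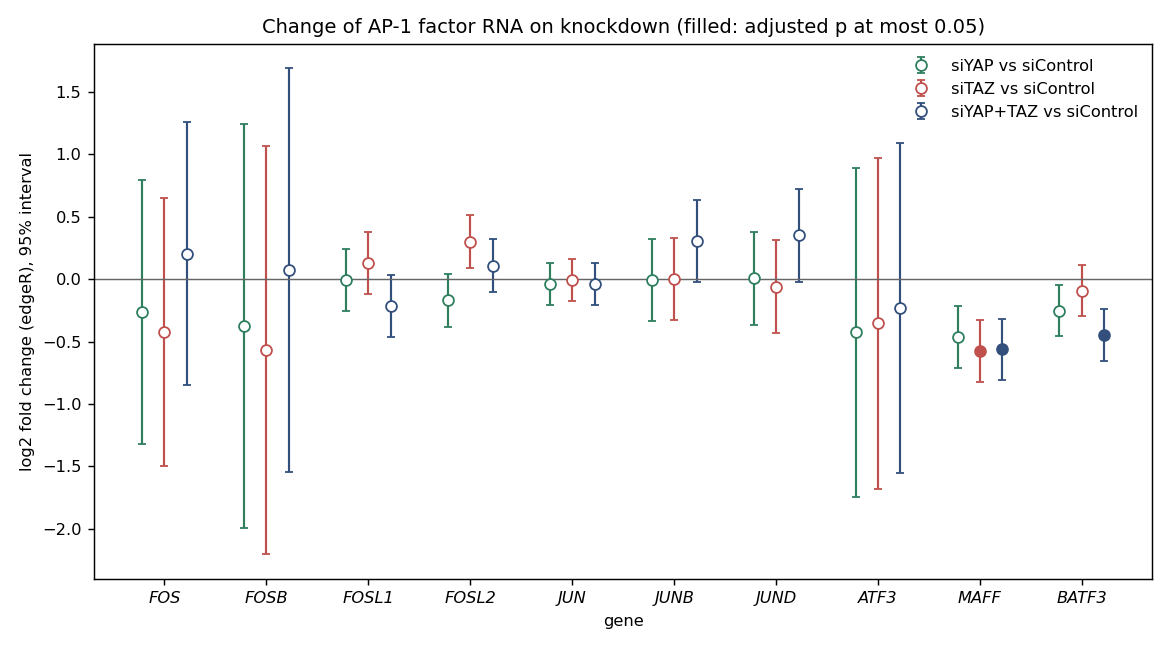
Log2 fold change against siControl for each AP-1 factor gene in siYAP, siTAZ and siYAP+TAZ, from edgeR over all 15 libraries with 95% intervals; filled points have an adjusted p of at most 0.05. MAFF in siTAZ and MAFF and BATF3 in siYAP+TAZ are filled, and the intervals of FOS, FOSB and ATF3 are several times wider than those of the other members.

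MAFF encodes a small Maf protein, which has a bZIP domain but no activation domain and pairs with partners such as the NRF factors and BACH1. The gene lies on chromosome 22 from 38200767 to 38216507 on the plus strand, and 5.81% of its exonic bases overlap PLA2G6 on the other strand. MAFF was at 2246, 2187 and 2403 normalized counts in Control libraries 16, 21 and 26 and at 2370, 2244 and 2060 in siControl libraries 17, 22 and 27. It was at 1685, 1621 and 1533 in siYAP libraries 18, 23 and 28, at 1852, 1158 and 1456 in siTAZ libraries 19, 24 and 29, and at 1555, 1552 and 1415 in siYAP+TAZ libraries 20, 25 and 30. All 9 knockdown libraries lay below all 6 libraries of Control and siControl, and the single knockdowns overlapped with the co-knockdown.

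The log2 fold change of MAFF was -0.56 in siYAP+TAZ (SE 0.12, edgeR adjusted p = 0.00263), which is 0.677 times the siControl level. In siTAZ it was -0.58 (SE 0.12, edgeR adjusted p = 0.0145), and in siYAP -0.46 (SE 0.12, edgeR adjusted p = 0.0697), which missed the threshold although the 2 groups did not overlap, as held for 2 members and 19.5% of all genes. The siYAP change was called with DESeq2 (adjusted p = 0.023), with only the groups compared in the fit (edgeR adjusted p = 0.031) and with the run as a block (edgeR adjusted p = 0.0129). The siTAZ call was lost with only the groups compared (edgeR adjusted p = 0.12), and without siControl 17, siControl 22, siTAZ 24 or siTAZ 29, with adjusted p between 0.056 and 0.072. The log2 fold change was -0.58, -0.53, -0.57, -0.43 and -0.56 in these fits. The share of all genes called was 0.759%, 0.654%, 0.658%, 0.361% and 1.28%, against 2.03% in the main fit. Without libraries 26 to 30 the log2 fold change in siYAP+TAZ was again -0.56, with an adjusted p of 0.06. Against Control in place of siControl, MAFF was lower in all 3 knockdowns (log2 fold changes -0.60, -0.50 and -0.61 for the co-knockdown, siYAP and siTAZ, edgeR adjusted p = 0.00158, 0.0405 and 0.00907), beside 19.4%, 1.46% and 3.4% of all genes called. Within each run of library numbers, MAFF was lower than in the siControl library of the run in 9 of 9 knockdown libraries, with differences in log2 CPM of -0.61 to -0.53 for siYAP+TAZ, -0.49 to -0.42 for siYAP and -0.95 to -0.35 for siTAZ.

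No difference in MAFF was called between the co-knockdown and either single knockdown. The log2 fold change was -0.10 against siYAP (95% interval -0.35 to 0.15) and 0.01 against siTAZ (-0.23 to 0.26). Of the targets themselves, WWTR1 was at 2.19 times the siTAZ level in siYAP+TAZ (edgeR adjusted p = 0.0648), without overlap of the groups, and YAP1 at 1.37 times the siYAP level (edgeR adjusted p = 0.566), with overlap. Neither difference was called in this fit. With the run as a block, WWTR1 was called higher in siYAP+TAZ than in siTAZ (log2 fold change 1.17, edgeR adjusted p = 0.0366), and YAP1 was not called against siYAP (edgeR adjusted p = 0.411). Against siControl neither YAP1 nor WWTR1 was called in siYAP+TAZ (edgeR adjusted p = 0.0723 and 0.199). The part of these levels in the comparisons with the co-knockdown was not tested. The interaction, which measures how far the co-knockdown deviates from adding up both single log2 changes, was 0.48 for MAFF (interval 0.13 to 0.83, unadjusted p = 0.00999, edgeR adjusted p = 0.677). It therefore failed the adjustment over all genes, of which 0.0106% were called.

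BATF3 encodes a short bZIP protein of the BATF family that pairs with JUN proteins and is best known from dendritic cells. It lies on the minus strand of chromosome 1 from 212686417 to 212699840. BATF3 was at 399, 383 and 431 normalized counts in siControl libraries 17, 22 and 27, at 412, 463 and 435 in Control, and at 295, 303 and 291 in siYAP+TAZ. The siYAP+TAZ libraries were the 3 lowest of the 15 and the highest of them was 1.04 times the lowest. In siYAP it was at 307, 346.5 and 366, below every siControl library, and in siTAZ at 404, 393 and 338, overlapping with siControl.

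The log2 fold change of BATF3 was -0.45 in siYAP+TAZ (SE 0.099, edgeR adjusted p = 0.00371), -0.25 in siYAP (SE 0.098, edgeR adjusted p = 0.283) and -0.09 in siTAZ (SE 0.098, edgeR adjusted p = 0.713). Set directly against siTAZ, siYAP+TAZ had less BATF3, with a log2 fold change of -0.35 (edgeR adjusted p = 0.0451), while 5.44% of all genes were called in that comparison. This call was lost without siTAZ 19, siTAZ 24 or any of the siYAP+TAZ libraries (adjusted p from 0.11 to 0.14). The log2 fold change was -0.36 to -0.30 in these fits, in which 2.5% to 5.06% of all genes were called. Against siYAP the difference was -0.20 (95% interval -0.41 to 0.01, edgeR adjusted p = 0.298).

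FOSL1 encodes FRA1, the FOS family protein that dominates the AP-1 RNA here. It lies on the minus strand of chromosome 11 from 65892049 to 65900573, and 2.94% of its stretches of 50 bases also occur in the pseudogene FOSL1P1. FOSL1 was at 27370, 27120 and 29950 normalized counts in siControl and at 24300, 22810 and 25710 in siYAP+TAZ, so that these groups did not overlap. The log2 fold change was -0.21 (SE 0.12, 95% interval -0.46 to 0.04, edgeR adjusted p = 0.245), and the FOSL1 level was lower than in the siControl library in 3 of 3 runs, with differences in log2 CPM of -0.25 to -0.17. Non-overlap of 3 against 3 libraries was reached by 36.4% of all genes in this comparison and by 3 of the 10 members. Control, at 23300, 25970 and 32460, overlapped with siYAP+TAZ. In siYAP (26760, 25790 and 31660) and in siTAZ (25990, 34580 and 31730) FOSL1 overlapped with siControl, with log2 fold changes of -0.0039 and 0.13.

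FOSL2 encodes FRA2 and lies on chromosome 2 from 28392448 to 28417317 on the plus strand. It was the member whose single knockdowns differed. FOSL2 was at 5471, 5336 and 4316 normalized counts in siControl, at 4562, 4830 and 4053 in siYAP and at 5674, 7312 and 5624 in siTAZ. In siYAP+TAZ it was at 5340, 5485 and 5477, between the single knockdowns, and in Control at 5108, 5113 and 5099. Every siTAZ library lay above every siControl and every siYAP library. The direct log2 fold change of siTAZ over siYAP was 0.47 (SE 0.10, edgeR adjusted p = 0.0409), beside 0.642% of all genes called. This call was lost without siYAP 18, siYAP 28, siTAZ 24 or siTAZ 29, with adjusted p between 0.073 and 0.31. The log2 fold change was 0.47, 0.39, 0.32 and 0.53 in these fits, in which 0, 0, 4 and 3 of all genes were called, against 121 with all libraries. Against siControl the log2 fold change was 0.30 in siTAZ (95% interval 0.09 to 0.51, edgeR adjusted p = 0.134) and -0.17 in siYAP (interval -0.38 to 0.04, edgeR adjusted p = 0.554). With the run as a block, FOSL2 was called in siTAZ against siYAP (edgeR adjusted p = 0.00054) and against siControl (0.0108), but not in siYAP against siControl (0.207). Of all genes 7.32%, 10.3% and 6.1% were then called.

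JUN, the founding member and common partner of the FOS proteins, was the steadiest. The gene lies on chromosome 1 from 58776845 to 58784048. JUN was at 12480 to 13250 normalized counts in siControl, 12160 to 13610 in siYAP, 12590 to 13500 in siTAZ and 11930 to 13340 in siYAP+TAZ, and these ranges overlapped. Its log2 fold change in siYAP+TAZ was -0.04 with a 95% interval of -0.20 to 0.13, in siYAP -0.04 (-0.20 to 0.13) and in siTAZ -0.0039 (-0.17 to 0.16), the narrowest intervals of any member. Control libraries, at 16480, 13550 and 13690, all lay above the siControl libraries, although the log2 fold change of siControl over Control was only -0.17 (edgeR adjusted p = 1). Non-overlap was found for 1 of the 10 members and for 5.83% of all genes. In that comparison edgeR called 0% of all genes and no member. Over all genes 398 (2.11%) had an unadjusted p under 0.05, and DESeq2 and limma-voom also called no member.

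JUNB and JUND, which are weaker activators than JUN in many settings, were higher on average in the co-knockdown. JUNB was at 1625, 1505 and 1233 normalized counts in siControl and at 2105, 1866 and 1445 in siYAP+TAZ. The groups overlapped, and the log2 fold change was 0.31 (SE 0.15, 95% interval -0.02 to 0.64, edgeR adjusted p = 0.193). With the run as a block JUNB was called (log2 fold change 0.31, SE 0.065, edgeR adjusted p = 0.000524), beside 28.6% of all genes. Within the runs the siYAP+TAZ library was higher in 3 of 3, by 0.37, 0.31 and 0.23 in log2 CPM, while siYAP and siTAZ differed from siControl by at most 0.094 in either direction. Without libraries 26 to 30, a setting chosen after seeing the data, JUNB had a log2 fold change of 0.36 and an adjusted p of 0.0094. Without siYAP+TAZ 30 alone the values were 0.46 and 0.046. Of the exonic bases of JUNB (chromosome 19 from 12791486 to 12793315), 14.2% overlap HOOK2 on the other strand, and whether the authors counted by strand is not stated.

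JUND was at 5872, 4768 and 3901 normalized counts in siControl, at 6758, 6832 and 4978 in siYAP+TAZ and at 3591, 4130 and 5126 in Control. The log2 fold change in siYAP+TAZ was 0.35 against siControl (SE 0.17, edgeR adjusted p = 0.191) and 0.53 against Control (SE 0.17, edgeR adjusted p = 0.0467), where 19.4% of genes were called. The siYAP+TAZ library was above the siControl library in 3 of 3 runs, by 0.20, 0.52 and 0.35 in log2 CPM. Without libraries 26 to 30 the change against siControl was 0.37 with an adjusted p of 0.017, whereas with the run as a block and all libraries it was 0.36 (SE 0.18, edgeR adjusted p = 0.199) and not called. In siYAP and siTAZ the log2 fold changes of JUND were 0.01 and -0.06. The gene has a single exon on chromosome 19 from 18279694 to 18281622.

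**Figure D3:**
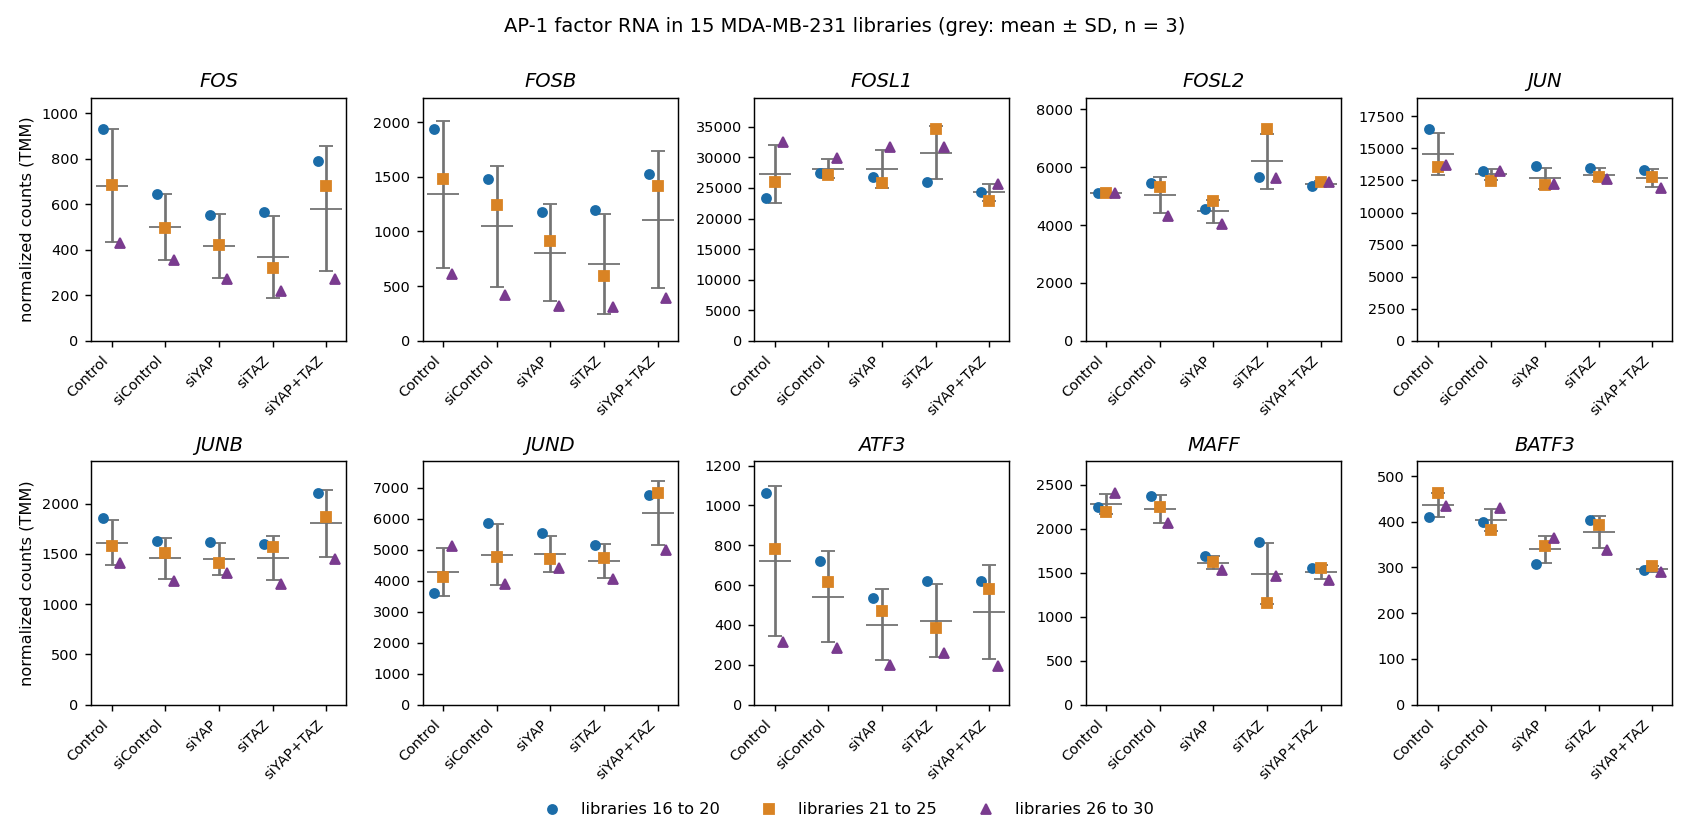
Normalized counts (TMM) of each AP-1 factor gene in every library by group, with symbols for the runs of library numbers and grey bars for mean ± SD of 3 libraries; every axis starts at 0. MAFF is lower in all 9 knockdown libraries than in Control and siControl, BATF3 is lowest in siYAP+TAZ, and FOS, FOSB and ATF3 are lowest in libraries 26 to 30 of each group.

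FOS, FOSB and ATF3 varied more between the runs of library numbers than between the groups. FOS and FOSB encode the FOS proteins induced most sharply by growth signals, and ATF3 encodes a stress-induced factor of the ATF/CREB family that represses many of its targets. FOS (chromosome 14 from 75278826 to 75282230) was at 646, 496.5 and 354 normalized counts in siControl libraries 17, 22 and 27 and at 928, 682 and 431 in Control. It was at 553, 420 and 272 in siYAP, at 567, 320 and 218.5 in siTAZ and at 791, 678 and 270 in siYAP+TAZ. The library from the run 26 to 30 was the lowest in each of the 5 groups.

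FOSB (chromosome 19 from 45467995 to 45475179) was at 1475, 1239 and 422 in siControl, 1933, 1477 and 609 in Control, 1182, 913 and 317 in siYAP, 1199, 591 and 306 in siTAZ and 1527, 1411 and 388 in siYAP+TAZ. ATF3 (chromosome 1 from 212565334 to 212620777) was at 723, 616 and 284 in siControl, 1062, 781 and 316 in Control, 533, 471 and 200 in siYAP, 620, 383 and 260 in siTAZ and 620, 582 and 196 in siYAP+TAZ. For both genes too the library from the run 26 to 30 was the lowest of each group. Libraries 26 to 30 had on average 0.320 times the FOSB, 0.402 times the ATF3, 0.516 times the FOS and 0.791 times the JUNB level of the other 10, against 0.960 times for MAFF and 1.0 times for BATF3.

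The runs accounted for 81.4% of the variance of log2 CPM of FOSB over the 15 libraries, 79.5% for ATF3, 65.7% for FOS and 62.5% for JUNB, against a median of 17.6% over 13210 genes averaging 20 or more normalized counts. For MAFF it was 5.85% and for BATF3 1.18%, while the groups accounted for 80.5% and 84.9%. Other immediate-early genes moved the same way. Of 29 with a mean of at least 20, 26 had their lowest mean in libraries 26 to 30, against 41.2% of all such genes. HSPA1A and HSPA1B, which encode the stress-inducible chaperone HSP70, were at 0.687 and 0.725 times the level of the other 10 libraries there, with 63.4% and 79.1% of their variance between runs. Of the 12 heat shock genes to which they belong, a list for handling stress, 4 had their lowest and 7 their highest mean there, and their summed level was 154700 to 187000 normalized counts in libraries 16 to 25 and 159300 to 195000 in libraries 26 to 30. What sets libraries 26 to 30 apart was not tested.

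With this spread the comparison of groups, which had no term for the run, was imprecise for the 3 genes. In siYAP+TAZ against siControl the log2 fold change was 0.20 for FOS (95% interval -0.85 to 1.26), 0.07 for FOSB (-1.54 to 1.69) and -0.23 for ATF3 (-1.56 to 1.09). In siYAP each gene was below the siControl library in 3 of 3 runs, with differences in log2 CPM of -0.38 to -0.22 for FOS, -0.44 to -0.32 for FOSB and -0.50 to -0.38 for ATF3. In siTAZ each was again below it in 3 of 3 runs, with differences of -0.69 to -0.19, -1.07 to -0.30 and -0.68 to -0.13. The 3 genes varied together and both single knockdowns share the siControl libraries, so these counts are not independent. The share of all genes lower in 3 of 3 runs was not determined. In siYAP+TAZ only ATF3 was lower in 3 of 3 runs, with differences of -0.54 to -0.08, and FOS and FOSB were higher in libraries 20 and 25 and lower in library 30. Neither single knockdown passed the edgeR test for these genes without a term for the run (adjusted p from 0.747 to 0.919). With the run as a block, FOS and FOSB were called lower in siTAZ (log2 fold changes -0.47 and -0.59, edgeR adjusted p = 0.0297 and 0.0311) and ATF3 in siYAP (-0.44, edgeR adjusted p = 0.0367). Control, which received no siRNA, was above siControl in 3 of 3 runs for each, by 0.15 to 0.55 in log2 CPM, with adjusted p = 1 for each.

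**Figure D4:**
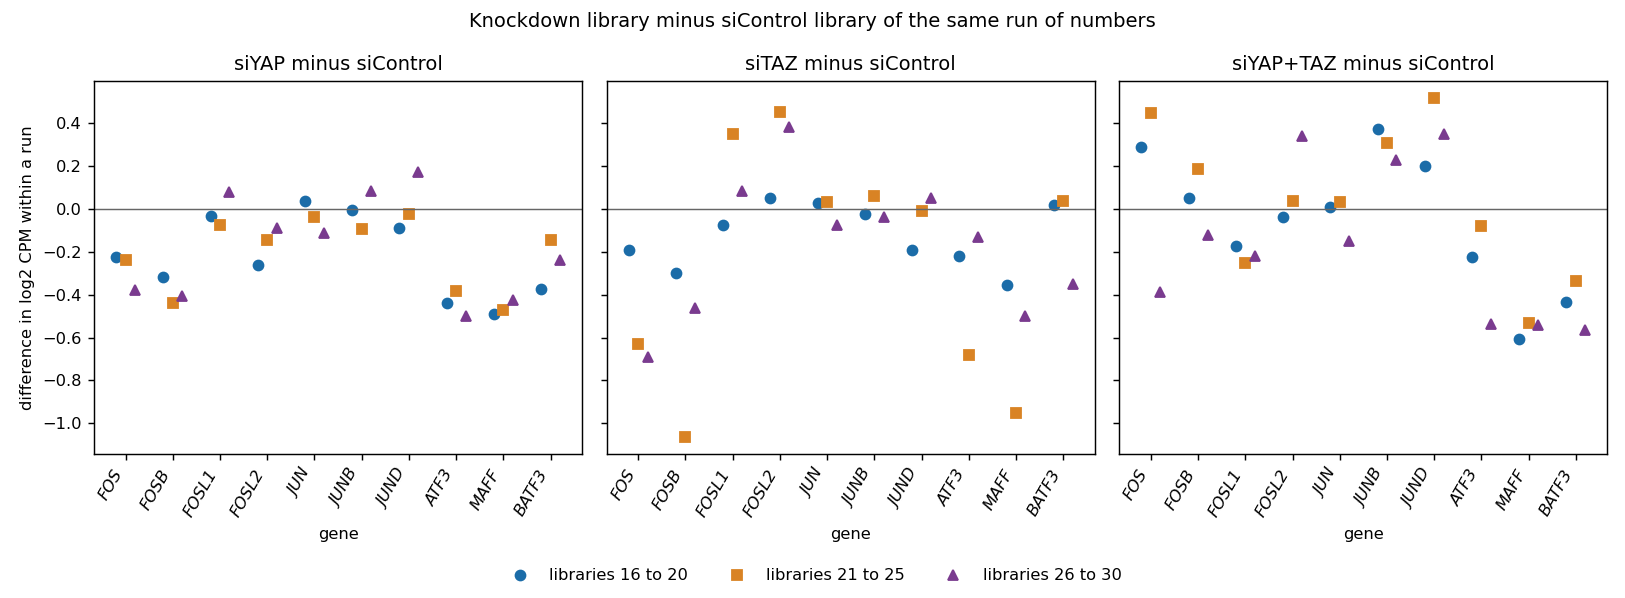
Difference in log2 CPM between a knockdown library and the siControl library of the same run of consecutive library numbers, for each AP-1 factor gene; symbols mark the runs. MAFF lies below 0 in all 9 differences, FOS, FOSB and ATF3 lie below 0 in siYAP and siTAZ, and JUNB and JUND lie above 0 in all 3 differences of siYAP+TAZ.

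Across the 15 libraries, FOS, FOSB and ATF3 rose and fell together, with Pearson's r of log2 CPM of 0.961 for FOS and FOSB, 0.965 for FOSB and ATF3 and 0.919 for FOS and ATF3 (Spearman's rho 0.975, 0.939 and 0.914). These values describe libraries that share groups and runs and carry no test. Over the 10 libraries numbered 16 to 25, r was 0.97, 0.91 and 0.87. JUNB followed FOS with r of 0.841, FOSB with 0.826 and ATF3 with 0.730, and over the 10 libraries these were 0.71, 0.56 and 0.38. FOSL1 ran against FOS (r = -0.727) and FOSB (r = -0.723), and these were -0.82 and -0.83 over the 10 libraries. MAFF and BATF3 had r of 0.630, and 0.49 over the 10. FOSL2 had no r above 0.30 or below -0.36 with any other member over the 15 libraries, but over the 10 its r was 0.67 with FOSL1, -0.59 with FOSB, -0.51 with MAFF and -0.49 with FOS.

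**Figure D5:**
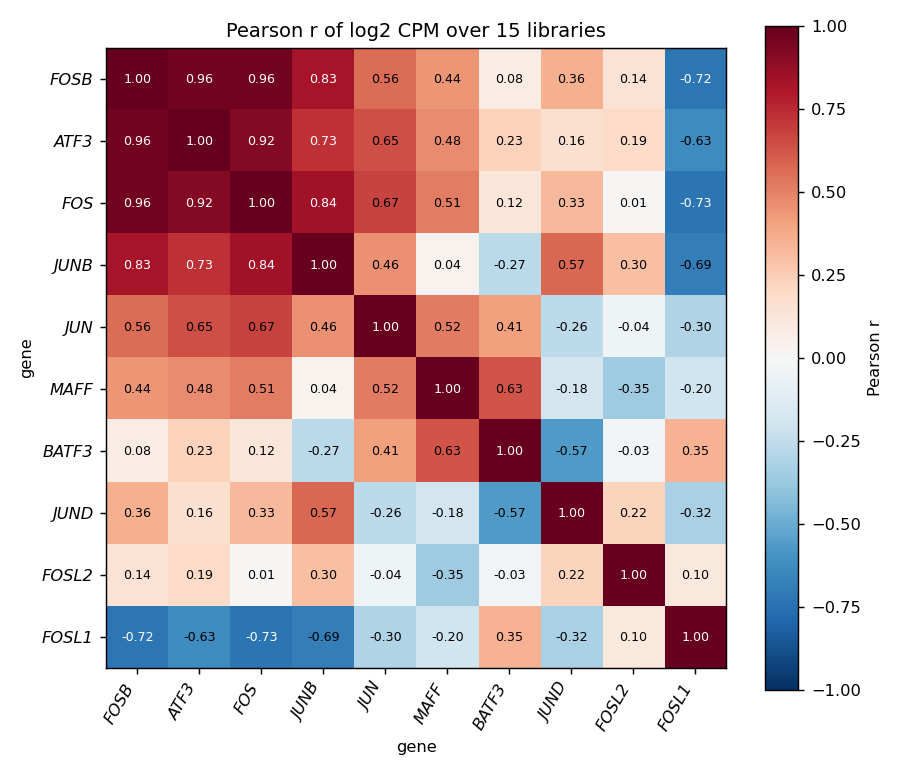
Pearson's r of log2 CPM over 15 libraries between the AP-1 factor genes, shown as colour and value. FOSB, ATF3, FOS and JUNB form the block of high values over all 15 libraries, in which the values of JUNB are lower without libraries 26 to 30, and FOSL1 is negative with each of those 4.

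Of all genes averaging 20 or more normalized counts, those with the pattern most like FOS were FOSB (r = 0.961), EGR1 (0.952) and NR4A1 (0.938). Those most like FOSB were GEM (0.971), ATF3 (0.965) and HES4 (0.962), and those most like ATF3 were FOSB (0.965), CD55 (0.957) and ATP10A (0.953). For MAFF they were ZBTB18 (0.960), ANKRD1 (0.956), a known target of YAP and TAZ, and ADM (0.953), which encodes adrenomedullin. For BATF3 they were RIC8A (0.944), SLC20A2 (0.937) and TRAM2 (0.920), and for FOSL1 ELF4 (0.958), SNRPC (0.953) and FERMT1 (0.947). FOSL2 was most like SNX13 (0.945), JUN most like ATP13A1 (0.923), JUNB most like ZBTB3 (0.912) and JUND most like OTUD5 (0.956).

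Genes around AP-1 changed in both directions in the co-knockdown. Of 22 bZIP factors other than the 10 members, 3 rose and 1 fell in siYAP+TAZ against siControl (18.2% called, beside 18.4% of all genes). CREB5 rose by 0.56 on the log2 scale (SE 0.16), ATF7 by 0.39 (SE 0.11) and ATF2 by 0.27 (SE 0.079), and these 3 form a subfamily that binds the CRE and pairs with JUN. CEBPG fell by 0.32 (SE 0.082). The edgeR adjusted p was 0.0183, 0.0188, 0.0237 and 0.00941 for these genes. Without siControl 27 only 1 of the 22 was called, beside 14.7% of all genes.

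Of 30 other immediate-early genes, 7 rose and 4 fell (36.7% called), with a median log2 fold change of 0.18 beside -0.0048 over all genes. EGR2, a zinc finger factor induced by serum, rose by 1.36 (SE 0.46, edgeR adjusted p = 0.0485), TRIB1 by 0.94 (SE 0.29, edgeR adjusted p = 0.0401) and DUSP4, a phosphatase that switches off ERK and JNK, by 0.66 (SE 0.18, edgeR adjusted p = 0.0219). CCN1 fell by 1.17 (SE 0.13, edgeR adjusted p = 8.37e-06), CCN2 by 0.99 (SE 0.17, edgeR adjusted p = 0.00113) and GADD45B by 0.86 (SE 0.11, edgeR adjusted p = 3.12e-05). CCN1 and CCN2 are the textbook targets of YAP and TAZ as well as immediate-early genes. The count fell from 11 to 6 without siYAP+TAZ 20 and to 7 without siControl 22, siControl 27 or siYAP+TAZ 25. The share of all genes called fell too, from 18.4% to 13.7%, 13.3%, 14.7% and 14.1% in these fits.

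Genes reported as AP-1 targets gave 5 higher and 4 lower of 24 (37.5% called). VEGFA, the angiogenic growth factor, rose by 1.01 (SE 0.091, edgeR adjusted p = 8.48e-07), TIMP1, an inhibitor of matrix metalloproteinases, by 0.60 (SE 0.17, edgeR adjusted p = 0.0217) and HMOX1, the heme oxygenase, by 0.54 (SE 0.17, edgeR adjusted p = 0.0407). EZR fell by 0.40 (SE 0.10, edgeR adjusted p = 0.00904) and HBEGF, an EGF receptor ligand, by 0.35 (SE 0.079, edgeR adjusted p = 0.00438). The count was 4 without siControl 22 and 5 without siControl 17, siControl 27 or siYAP+TAZ 30, where 13.3%, 13.5%, 14.7% and 15.6% of all genes were called.

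The kinases and regulators that act upstream of AP-1 gave 5 higher and 2 lower of 24 (29.2% called). Those that rose included genes of the SPRED and SPRY families, which encode inhibitors of RAS and ERK signalling, with SPRED1 at 0.61 (SE 0.077, edgeR adjusted p = 2.45e-05), SPRY4 at 0.54 (SE 0.088, edgeR adjusted p = 0.000313), SPRY2 at 0.40 (SE 0.084, edgeR adjusted p = 0.00233) and SPRED2 at 0.37 (SE 0.11, edgeR adjusted p = 0.0188). MAPK3, which encodes the kinase ERK1, rose by 0.41 (SE 0.11, edgeR adjusted p = 0.0121), whereas MAPK8, which encodes the JUN kinase JNK1, fell by 0.42 (SE 0.084, edgeR adjusted p = 0.00161). Without siControl 17 or siControl 22 the count was 4 of 24, where 13.5% and 13.3% of all genes were called. Among 12 heat shock genes 1 rose and 3 fell (33.3% called), with BAG3 at 0.25 and HSPD1, HSP90AA1 and HSPA8 at -0.37, -0.36 and -0.27.

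Of the 112 genes of the 5 lists, 35 were called in siYAP+TAZ (31.2%, beside 18.4% of all genes), 2 in siYAP (1.79%, beside 0.933%) and 7 in siTAZ (6.25%, beside 2.03%). The background includes genes with few counts. With the 2 stricter filters it was 23.2% and 23.7% in siYAP+TAZ, 1.19% and 1.21% in siYAP, and 2.84% and 2.95% in siTAZ. The lists also hold known targets of YAP and TAZ and were chosen with earlier results known. In siYAP, GADD45A fell by 0.42 on the log2 scale (SE 0.081, edgeR adjusted p = 0.0154) and MAPK8 by 0.36 (SE 0.084, edgeR adjusted p = 0.044), and no other gene of the 5 lists was called. In siTAZ, BACH2 rose by 1.07 (SE 0.27, edgeR adjusted p = 0.0458), CREB5 by 0.62 (SE 0.16, edgeR adjusted p = 0.0488), PLAU, the urokinase, by 0.74 (SE 0.17, edgeR adjusted p = 0.0417) and VEGFA by 0.68 (SE 0.091, edgeR adjusted p = 0.00231). CCN1 fell by 0.65 (SE 0.12, edgeR adjusted p = 0.0109), GADD45A by 0.35 (SE 0.082, edgeR adjusted p = 0.0302) and HSP90AA1 by 0.30 (SE 0.076, edgeR adjusted p = 0.0488), and these 7 were all that were called. BACH2 and the NRF factors belong to the partners of MAFF.

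Set against the single knockdowns directly, siYAP+TAZ gave no call among the 10 members against siYAP, where 5.13% of genes were called, and BATF3 alone against siTAZ. With the run as a block, FOS, FOSL2 and JUNB were called higher against siYAP (edgeR adjusted p = 0.0275, 0.0107 and 0.00116). Against siTAZ, FOS, FOSB and JUNB were then called higher (edgeR adjusted p = 0.00324, 0.0144 and 0.00162) and FOSL1 and BATF3 lower (edgeR adjusted p = 0.00659 and 0.0106), while the share of all genes called was 14.6% against siYAP and 14.8% against siTAZ. Without the block, the largest differences of members against siYAP were those of FOS (0.47, 95% interval -0.59 to 1.52), FOSB (0.45, -1.18 to 2.07) and JUND (0.34, -0.03 to 0.72). FOSL1 was lower in every siYAP+TAZ library than in every siTAZ library, with a log2 fold change of -0.34 (interval -0.59 to -0.09, edgeR adjusted p = 0.109), and without siTAZ 19 its adjusted p was 0.035. The interaction was called for none of the members, at an unadjusted p under 0.05 for MAFF alone (5.85% of all genes), and by neither DESeq2 nor limma-voom. With the run as a block it was called for FOS (0.91, edgeR adjusted p = 0.0309) and for 0.647% of all genes.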

How the data were processed

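The 15 RNA libraries of MDA-MB-231 cells, 3 in each of 5 groups, were assigned by the sample titles and all entered the fit. The authors purified polyadenylated RNA, sequenced single reads on a NovaSeq, trimmed them with cutadapt, aligned them with STAR 2.4.2a to GRCh38 with GENCODE release 34 through the UTAP pipeline, and deposited raw read counts per gene. The deposited table also holds normalized and rlog values and the authors' own comparisons, none of which were used here.

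TMM scaling and the robust quasi-likelihood test of edgeR 4.0.16 (in R 4.3.3) were applied to the counts, with 1 coefficient per group and no block. Every one of the 18858 genes reached 5 reads in 1 or more libraries and was tested. P-values were adjusted by Benjamini-Hochberg over all genes, and a gene was called where this did not exceed 0.05 and counted again where its log2 fold change was 1 or more in size. Log2 CPM used a prior count of 2. At total counts between 18696737 and 30107312 per library, genes with few counts carry large errors.

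The genes named are the 10 members, the siRNA targets, and from each of 5 lists the genes with the largest changes among those called, averaging 20 or more normalized counts and without overlap of the groups, up to 6 in siYAP+TAZ and up to 3 in each single knockdown, beside the 3 genes most like each member by Pearson's r. Of the genes this rule gave, 1 is not reported here. The members and lists were chosen with earlier results of these data known. Alternatives were DESeq2 1.42.0, limma-voom (limma 3.58.1), stricter filters, other scalings, fits without robust estimation or on the compared groups alone, Control as the reference, a replicate block and left-out libraries, and, chosen after seeing the data, leaving out libraries 26 to 30. The tests were run first on simulated data. Coordinates, exons and lengths came from GENCODE release 44 on GRCh38, and promoters from RefSeq on GRCh38.p14.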

Additional observations from a re-analysis of the deposited data

Results flagged for a closer look

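Direct tests between knockdowns set apart 2 members. FOSL2 was higher in siTAZ than in siYAP, with a log2 fold change of 0.47, and every siTAZ library lay above every siYAP library. BATF3 was lower in siYAP+TAZ than in siTAZ, with a log2 fold change of -0.35, and these groups did not overlap either. Both were near the threshold in the main fit (edgeR adjusted p = 0.0409 and 0.0451). With the run as a block, both were called (edgeR adjusted p = 0.00054 and 0.0106).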

How the results depend on the processing

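MAFF and BATF3 were the called members of siYAP+TAZ against siControl under all alternatives but the one without libraries 26 to 30, where MAFF was lost, with additions under the block, with Control as the reference and without siYAP+TAZ 30. The counts of members called were less stable elsewhere. Against siControl, siYAP gave 1 with DESeq2, with only the groups compared and with Control as the reference, instead of 0. Of all genes 2.12%, 0.762% and 1.46% were called there, against 0.933% in the main fit. For siTAZ, 1 became 0 with only the groups compared and without libraries 26 to 30 (0.759% and 4.71% of all genes). Over left-out libraries it was 0 to 1 (0.361% to 4.82% of all genes). Without libraries 26 to 30, siYAP+TAZ gave 2 instead of 0 against siYAP and 3 instead of 1 against siTAZ, while 7.82% and 7.56% of all genes were called there. The 1 call of siYAP+TAZ against siTAZ and that of siTAZ against siYAP became 0 with limma-voom, library size only or only the groups compared, the latter also without robust estimation. Of all genes 5.31%, 5.15% and 3.34% were called there for the former, and 0.567%, 0.414%, 0.00545% and 0.488% for the latter. Each was 0 to 1 over left-out libraries, with 2.5% to 5.06% and 0% to 2.22% of all genes called.

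The libraries share no replicate number. With the run of library numbers as a replicate block, siYAP gave 2 members (ATF3 and MAFF lower), siTAZ 4 (FOS, FOSB and MAFF lower, FOSL2 higher) and siYAP+TAZ 3 (JUNB higher, adjusted p = 0.00052) against siControl, siYAP+TAZ 3 against siYAP and 5 against siTAZ, and the interaction 1 (FOS). Of the lists, bZIP partner factors gave 8 and other immediate-early genes 18 under the block. Of 30 same-run pairs of libraries, 26 had correlated deviations from the group means with r over 0.1 (median 0.39, lowest -0.05). So did 16 of 60 pairs from different runs (median -0.315, highest 0.386). None of those 16 pairs included any of libraries 26 to 30. Because the deviations cancel out within each group, part of the contrast between the medians is built in. Of 15 libraries, 10 correlated best with their own run. The correlations set libraries 26 to 30 apart but did not clearly separate the other runs from each other. Each run holds 1 library of every group, but no source ties a run to one of the independent sets of experiments. The pairing is therefore only a hint from the data, and mainly for libraries 26 to 30. Over all genes the block raised the calls from 3464 to 5389 in siYAP+TAZ, from 176 to 1151 in siYAP and from 383 to 1942 in siTAZ.

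Over left-out libraries the lists gave 1 to 4 called bZIP partner factors, 6 to 13 immediate-early genes, 4 to 9 AP-1 targets and 4 to 7 upstream regulators. The share of all genes called was 13.3% to 15.6% in these fits, against 18.4% with all libraries. With the longest transcript as the length, the summed AP-1 RNA was 1110 CPM per kb in Control, 1108 in siControl, 1083 in siYAP, 1157 in siTAZ and 1038 in siYAP+TAZ, higher in each because the lengths are shorter. No called log2 fold change of a member changed sign. The causes of the other changes were not tested.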
